A study of Bos taurus with 20 samples.

Results

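The bta-miR-2284 and bta-miR-2285 miRNAs form a large miRNA family of cattle, and every row of the deposited table whose name began with either of these names was taken as a member. This gave 147 of 1029 miRNAs, of which 31 were named miR-2284 and 116 were named miR-2285. The table held small RNA-seq counts of frozen-thawed spermatozoa from 20 Holstein-Friesian bulls. The bulls had been ranked for fertility with a statistical model, and 10 were of high fertility (HF) and 10 of low fertility (LF). Straws from 3 ejaculates were pooled for each bull before RNA extraction and 1 library was made per bull, so a replicate is a bull, and the labels give no treatment and no age. Breed, sex, tissue and library kit were common to both groups. The labels give the fertility class of each bull and not its value.

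MicroRNAs are short RNAs processed from hairpin precursors, and they guide Argonaute proteins to matching sites in messenger RNAs, mainly through the bases near their 5' end. The miR-2284 and miR-2285 family was described in cattle and is known from ruminants, with a large number of hairpin genes scattered over the genome that give rise to similar mature sequences. Spermatozoa carry little RNA and are largely silent in transcription, so the miRNAs found in them derive from spermatogenesis or are taken up on the way through the epididymis. In such bulk samples, fewer cells of a type and less RNA per cell cannot be told apart.

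The deposited values were normalized counts, that is counts scaled to a common total of miRNA reads and corrected by a library factor. On that scale the commonest low value of each library was taken as 1 read, which returned 103204 to 3097581 recovered reads per library, a 30.0-fold span. HF replicate 17 was the shallowest HF library and LF replicate 11, with 310186 reads, the shallowest LF library. One read was worth a normalized count of 9.19 in HF replicate 17 and of 0.398 in HF replicate 2, the deepest library. The miRNAs of the male germ line, miR-34b, miR-34c and miR-449a, were read in every library and summed to 4.56% ± 0.941 (SD, n = 20) of the counts. The 6 blood cell miRNAs looked at summed to 0.0137% ± 0.00733, the 3 muscle miRNAs to 0.00709% ± 0.00319, and the 6 epithelial miRNAs, among them the miR-200 family, to 1.14% ± 0.260 (SD, n = 20 each). Reads from near-identical copies can be shared between members of the family, so the level of any single member is uncertain to that extent.

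Most of the family was read in these spermatozoa. At least 1 read was found in any of the 20 bulls for 135 of the 147 members (91.8%), compared with 67.6% of the 882 miRNAs outside the family and 45.3% of the 265 other miRNAs numbered between miR-2286 and miR-2999, which were also found first in cattle. A total of 68 members (46.3%) had a read in every library, compared with 25.7% of the miRNAs outside the family. A further 67 members were read in 1 to 19 libraries, and 117 were read in at least 10. The 12 members with no read in any library were miR-2284h-3p, miR-2284t-5p, miR-2285a, miR-2285ae, miR-2285bx, miR-2285cg, miR-2285ck, miR-2285cq, miR-2285db, miR-2285dm, miR-2285w and miR-2285z. For each of them a count of 0 allows up to 3 reads per library, or 1.19 on the normalized scale in HF replicate 2 and 27.6 in HF replicate 17. Floors and intervals here cover counting error only. The median over the 147 members of the mean normalized count was 6.47, and it was 0.346 over the miRNAs outside the family.

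The number of members with at least 1 read in a library ran from 85 in HF replicate 17 to 124 in HF replicate 2. The HF libraries had 111 ± 11.5 members and the LF libraries 112 ± 6.15 (SD, n = 10 each), with a median of 113.5 in both groups. The SD within either group was larger than the difference between the group means. A permutation test of that difference gave p = 0.84 (two-sided, Benjamini-Hochberg adjusted p = 0.84 over 3 comparisons of single values). The number of members read followed the depth of the library. Pearson's r with log10 recovered reads was 0.95 and Spearman's rho 0.87 over the 20 bulls (permutation p = 1e-05 for each, the smallest that 100000 resamples can give, Benjamini-Hochberg adjusted p = 3e-05 over 3 relations). Without HF replicate 17 and LF replicate 11, the libraries farthest from the median depth, r was 0.90 (permutation p = 2e-05, n = 18). Within the groups r was 0.98 in HF and 0.88 in LF bulls. At the depth of the shallowest library, the expected number of members read was 78.0 ± 4.84 in HF and 77.1 ± 3.03 in LF bulls (SD, n = 10 each), a difference of 0.902 in the other direction (permutation p = 0.62).

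The counts of the family were concentrated on very few members. A single one, bta-miR-2284x, held 62.5% ± 3.07 of the counts of the family (SD, n = 20) and was the eighth most abundant of all miRNAs in the table. That share takes every row separately and depends on rows described below. It was 71.0% ± 3.27 with members of nearly constant ratio counted once. Without the members that held fractions of a read it was 84.4% ± 2.36 (SD, n = 20 each). The 5 most abundant members held 78.5% and the 10 most abundant 87.6%, and 21 members were needed to reach 95% and 55 to reach 99%. The inverse of the summed squared shares, an effective number of members, was 2.51 ± 0.239 (SD, n = 20). By mean normalized count, 4 members lay at or above 1000, 19 between 100 and 1000, 46 between 10 and 100, 44 between 1 and 10, and 22 of those read below 1. The last of these classes held 0.0255% of the counts of the family. The rows named miR-2284 were 31 of 147 members and held 77.0% ± 3.14 of the counts (SD, n = 20).

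**Figure D1:**
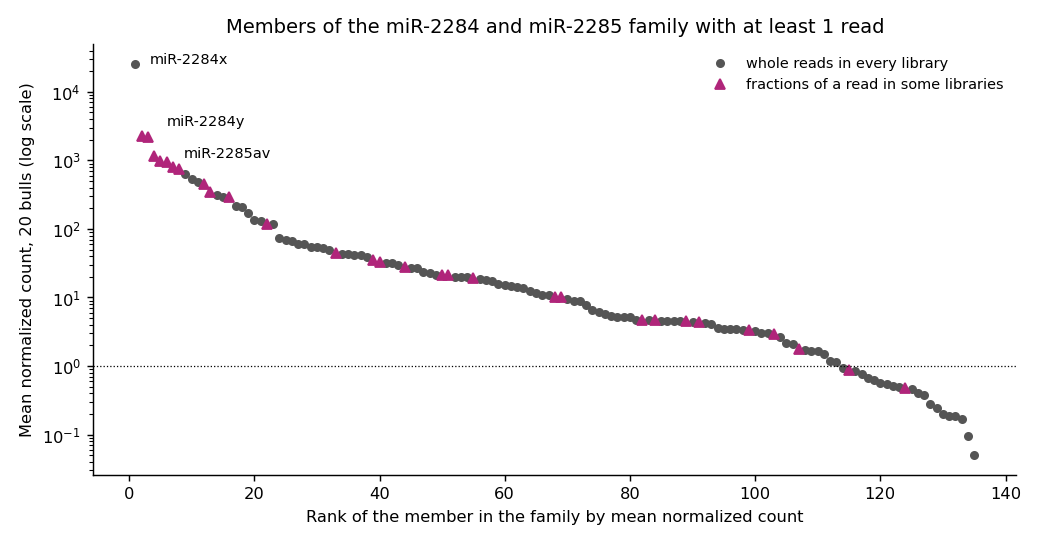
Mean normalized count over 20 bulls (vertical axis, log scale) of the 135 members with at least 1 read, ordered by rank (horizontal axis); triangles mark the 29 members with fractions of a read in some library, circles the members with whole reads, and the dotted line a count of 1. The miR-2284x point stands at 25853, more than any other member, and 8 of the 12 leading members are triangles.

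The most abundant member, bta-miR-2284x, had a normalized count of 18515 to 57675 in the HF bulls (median 24413) and of 11625 to 37576 in the LF bulls (median 22757). HF replicate 17 was the highest and LF replicate 13 the lowest of all 20 bulls, and the ranges of the groups overlapped between 18515 and 37576. Next came bta-miR-2284y, with 1478 to 4241 in HF (median 2227) and 1123 to 3316 in LF bulls (median 1810), and bta-miR-2285av, with 1469 to 4204 in HF (median 2215) and 1116 to 3305 in LF bulls (median 1800). Their levels were nearly the same in every library, a point taken up with the fractions of a read. The fourth, bta-miR-2284h-5p, lay below them, with 766 to 2210 in HF (median 1138) and 565 to 1708 in LF bulls (median 925). The row is named for the 5' arm of its hairpin, and the 3' arm row of the same hairpin had no read in any library against 24139 for the 5' arm row. The 5' arm row held fractions of a read and stayed at 0.503 to 0.523 of bta-miR-2284y in every library. Its reads can therefore not be assigned to this hairpin alone, and the use of the 2 arms was not tested. For miR-2284t, the only other hairpin with both arms listed, the 5' arm had no read and the 3' arm 2 reads in 20 libraries.

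The fifth and sixth members were bta-miR-2284z and bta-miR-2284aa. bta-miR-2284z had 577 to 2671 in HF (median 900) and 508 to 1445 in LF bulls (median 885), and bta-miR-2284aa 560 to 2599 in HF (median 879) and 473 to 1413 in LF bulls (median 855). Both were highest in HF replicate 17 and lowest in LF replicate 13. The remaining members of the first 12 were bta-miR-2285b at 794 ± 181, bta-miR-2285f at 743 ± 210, bta-miR-2285bf at 625 ± 161, bta-miR-2285au at 531 ± 204, bta-miR-2285bo at 479 ± 153 and bta-miR-2285n at 454 ± 201 (mean normalized count ± SD, n = 20). In these 12 members, the highest bull was 2.26 to 5.80 times the lowest, and the HF and LF ranges overlapped in all 12.

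The abundant members shared part of their order of bulls. HF replicate 17 was the highest library for 8 of the 12 most abundant members and LF replicate 13 the lowest for the same 8. These 8 are not separate measurements. Among them bta-miR-2284y, bta-miR-2285av and bta-miR-2284h-5p kept nearly constant ratios, and so did bta-miR-2284z and bta-miR-2284aa. bta-miR-2285n differed from that order, since its lowest normalized count of all 20 bulls was 164 in HF replicate 17 and its highest was 890 in LF replicate 11. bta-miR-2285bf, another member outside that order, had 487 in HF replicate 17 and its highest value, 1087, in HF replicate 14. Over the 68 members read in every library, the coefficient of variation between bulls had a median of 38.0%, against a median of 18.9% for counting error alone. It was more than 2 times counting error in 29 members and at or below it in 3, which were bta-miR-2285m, bta-miR-2285dl-3p and bta-miR-2285ab. The widest margin was that of bta-miR-2284x, with a coefficient of variation of 37.1% against 0.736% for counting.

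The family took 4.11% ± 1.46 of all miRNA counts (SD, n = 20). The share ran from 3.28% to 8.77% in the HF bulls (median 3.58%, mean 4.40% ± 1.82) and from 2.62% to 5.74% in the LF bulls (median 3.45%, mean 3.82% ± 1.01; SD, n = 10 each). HF replicate 17 was the highest at 8.77% (95% Wilson binomial interval 8.60 to 8.95), followed by HF replicate 14 at 6.52%, LF replicate 18 at 5.74% and LF replicate 11 at 5.18%, and the other 16 bulls lay at or below 4.43%. The difference of 0.585 percentage points between the group means was less than the SD within either group. A permutation test of that difference gave p = 0.42 (two-sided, adjusted p = 0.84). The share of bta-miR-2284x within the family was 62.8% ± 3.29 in HF and 62.1% ± 2.96 in LF bulls (SD, n = 10 each; permutation p = 0.63, adjusted p = 0.84), from 55.0% in LF replicate 13 to 69.3% in HF replicate 17. Without HF replicate 17 that difference of 0.696 points became -0.0219 (p = 0.98), and without LF replicate 13 it became -0.0992 (p = 0.93). Likewise, the difference in the family's share was 0.0992 points without HF replicate 17 (p = 0.83).

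The libraries with a high share of the family included both of the shallowest. Between the share and log10 recovered reads, Pearson's r was -0.63 (permutation p = 0.0085, adjusted p = 0.013 over 3 relations) and Spearman's rho -0.40 (permutation p = 0.085, adjusted p = 0.13; n = 20). Without HF replicate 17 alone, r was -0.25 (permutation p = 0.29, n = 19). Without HF replicate 17 and LF replicate 11, r was -0.11 (permutation p = 0.67, n = 18). The relation thus rested mainly on HF replicate 17. Within the groups r was -0.74 in HF bulls (permutation p = 0.036) and -0.37 in LF bulls (permutation p = 0.29, n = 10 each). The germ line miRNAs summed to 5.21% of the counts in HF replicate 17 and to 4.62% in HF replicate 14, within the 3.13% to 6.23% of the HF bulls, and to 4.00% in LF replicate 18. In LF replicate 11 they summed to 2.69%, the lowest of all bulls. The epithelial miRNAs summed to 0.690% in HF replicate 17, the lowest of all bulls, and to 1.496% in HF replicate 14, the highest of the HF bulls, with 1.23% in LF replicate 18 and 1.01% in LF replicate 11. The blood cell list summed to between 0.00806% and 0.0107%, and the muscle list to between 0.00387% and 0.0115%, in these 4 libraries. The part of depth and of these miRNAs in the share of the family was not tested.

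**Figure D2:**
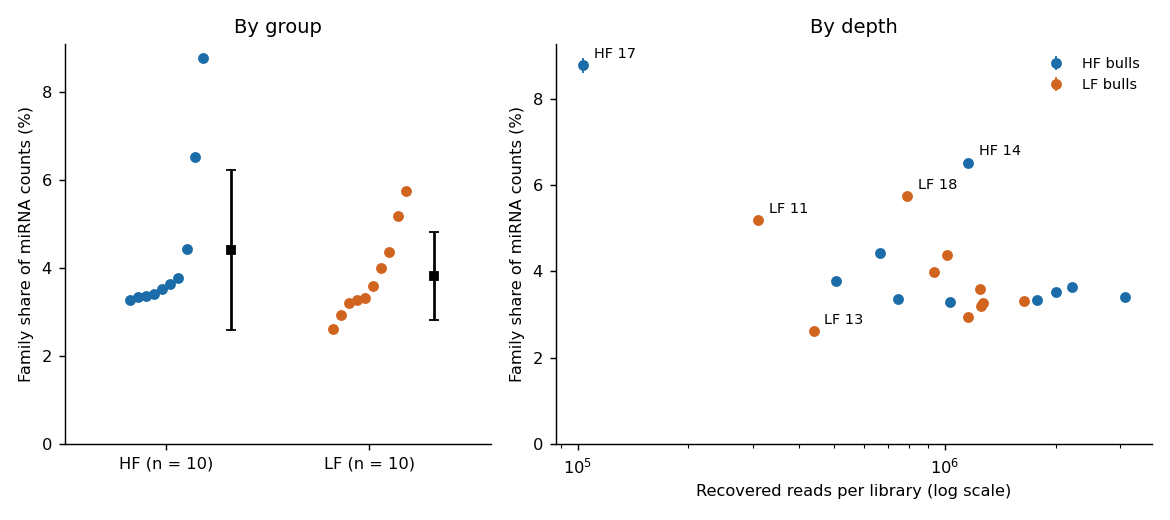
Family share of all miRNA counts in percent, by fertility group on the left (points are bulls, squares and bars are mean ± SD, n = 10 each) and against recovered reads per library on the right (log scale, bars are 95% Wilson binomial intervals, often smaller than the points). HF 17 stands at 8.77% and 103204 reads, HF 14 at 6.52%, and the groups overlap.

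Fractions of a read were common in the family and rare elsewhere. In 29 of the 147 members (19.7%) at least 1 library had a value more than 0.01 of a read away from a whole number, compared with 15 of the 882 miRNAs outside the family (1.70%). These 29 members held 26.0% ± 2.13 of the counts of the family (SD, n = 20) and included 8 of the 12 most abundant, the exceptions being bta-miR-2284x, bta-miR-2285bf, bta-miR-2285au and bta-miR-2285bo. For each of the 29 there was a small whole number that turned its value in all libraries into whole numbers. This denominator was 2 in 15 members, 3 in 4, 4 in 2, 5 in 3 and 7 in 3 members (bta-miR-2284y, bta-miR-2284z and bta-miR-2285n). It was 8 in bta-miR-2285av and 11 in bta-miR-2284aa. In HF replicate 2, for example, bta-miR-2284y had 5594.857 recovered reads, or 39164 sevenths, and bta-miR-2285av had 5564.625.

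The denominators were set beside the number of hairpin genes that carry the name of each member in the RefSeq annotation of ARS-UCD2.0, where 139 of the 147 members had a gene by name and the family had 191 genes in all. The denominator was equal to the number of genes in 13 of the 29 members, above it in 15 and below it in 0, and 1 member, bta-miR-2285bd, had no gene by name. bta-miR-2284y, bta-miR-2284z and bta-miR-2285n had 7 genes each, bta-miR-2285m, bta-miR-2285o and bta-miR-2285k had 5 genes and a denominator of 5, and bta-miR-2285b, bta-miR-2285e and bta-miR-2285at had 2 genes and a denominator of 2. bta-miR-2285av had 1 gene and a denominator of 8, bta-miR-2284aa 4 genes and a denominator of 11, bta-miR-2285f 2 genes and a denominator of 4, and bta-miR-2284h-5p 1 gene and a denominator of 2. Of the 9 members with 3 or more genes, 8 had a denominator equal to that number. Of the 106 members read with whole reads in every library, 92 had 1 gene, 7 had 2 and 7 had none by name.

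Rows with the same value in all 20 libraries were a minor feature of the family. Only 1 pair of members with reads was identical, bta-miR-2285am-5p and bta-miR-2285dc, each with 3 reads in HF replicate 2, 1 in HF replicate 10, 2 in LF replicate 5 and 1 in LF replicate 19. With 7 reads each, their agreement carries little weight. A nearly constant ratio was more frequent. In 13 of the 2278 pairs among the 68 members read in every library (0.571%), the SD of the log2 ratio over libraries was less than 0.5 of that given by independent counting, compared with 6 of 25651 pairs outside the family (0.0234%). The 13 pairs joined 23 members in 11 groups. Those of the groups' members that lie outside the rule for named members were chosen after their values were seen.

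The closest pair was bta-miR-2284y and bta-miR-2285av. Their ratio lay between 1.003 and 1.009 in the 20 libraries, with an SD of the log2 ratio of 0.0022 against 0.051 for independent counting. bta-miR-2284h-5p belonged to the same group, at 0.503 to 0.523 of bta-miR-2284y, and the 3 members together held 13.7% of the counts of the family. bta-miR-2284aa was at 0.930 to 0.986 of bta-miR-2284z, and this pair held 4.56%. Less abundant pairs were bta-miR-2285da with bta-miR-2285dd (ratio 1.00 to 1.13), bta-miR-2285aw with bta-miR-2285cm (0.664 to 0.741), bta-miR-2285bn with bta-miR-2285ce (1.09 to 1.23) and bta-miR-2284j with bta-miR-2284m (0.899 to 1.09). Counts of members given here take each row of such a pair separately. By contrast, the ratio of bta-miR-2284y to bta-miR-2284z ran from 1.30 in HF replicate 14 to 4.67 in HF replicate 6, with an SD of the log2 ratio of 0.50 against 0.066 for counting. That ratio overlapped between the groups, from 1.30 to 4.67 in HF (median 2.54) and from 1.75 to 4.04 in LF bulls (median 2.33). The ratio of bta-miR-2284x to bta-miR-2285au ran from 43.5 to 56.5, only 1.52 times the spread of counting, whereas that of bta-miR-2284x to bta-miR-2284y ran from 7.88 to 14.6, at 6.08 times.

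**Figure D3:**
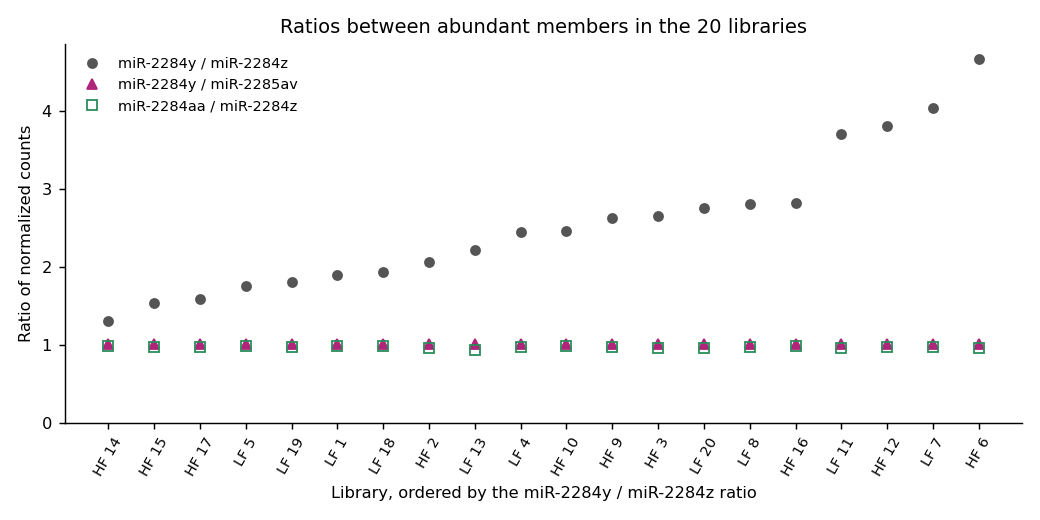
Ratio of normalized counts (vertical axis, from 0) in each of the 20 libraries for miR-2284y over miR-2284z (circles), miR-2284y over miR-2285av (triangles) and miR-2284aa over miR-2284z (squares), with libraries ordered by the first ratio. The circles climb from 1.30 to 4.67, while triangles stay between 1.003 and 1.009 and squares between 0.930 and 0.986.

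Rows of members encoded next to each other differed in level. In the RefSeq annotation, 12 pairs of genes from different members of the family were direct neighbours. bta-miR-2284x, at a mean of 25853, had bta-miR-2284i as its neighbour, which had a mean normalized count of 0.242 and 6 reads in all libraries together. Others were bta-miR-2285o at 21.1 beside genes of bta-miR-2285av, bta-miR-2284y and bta-miR-2284h-5p, and bta-miR-2285g at 3.40 beside a gene of bta-miR-2285n. Where a member has several genes, the reads cannot be assigned to any one of them here. Nor can those of bta-miR-2285av and bta-miR-2284h-5p, which had 1 gene each but denominators of 8 and 2. For such members a difference in level between the neighbouring genes themselves was not shown.

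The question of the study was whether sperm miRNAs differ between bulls of high and low fertility. For this the log2 of the normalized count + 1 was compared with limma over the 435 miRNAs that had a normalized count of at least 1 in more than 10 bulls, and fold changes on that scale understate the change of low miRNAs. Of the 147 members, 103 passed this filter and were tested, and the rest are described by their reads. The study used a p under 0.05 and a fold change above 1.5, and with the p taken as unadjusted here these thresholds were passed by 9 of 435 miRNAs (2.07%) and by 1 of the 103 members, bta-miR-2285p. An unadjusted p under 0.05 was found for 15 of 435 miRNAs (3.45%) and for 2 of 103 members. The smallest Benjamini-Hochberg adjusted p was 0.92 over all miRNAs in limma, and 0 of 435 miRNAs had an adjusted p under 0.05 (0%). None had one in edgeR's quasi-likelihood test either, where 18 had an unadjusted p under 0.05 and 13 passed both thresholds, nor in edgeR's likelihood ratio test (16 and 12) or DESeq2 (18 and 11). Neither count of members was a larger share than that of all miRNAs tested.

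The fold changes of the members were small, and more of them were positive than negative. The log2 fold change, HF over LF, was above 0 in 73 and below 0 in 30 of 103 members, with a median of 0.14, beside 218 of 435 and a median of 0.01 over all miRNAs tested. The number above 0 was 66 to 78 of 103 when each bull was left out in turn, beside 46.2% to 56.3% of all miRNAs. Without HF replicate 17 the number was 68, beside 56.3% of all miRNAs in that fit. Without the library factor it was 67 of 103, beside 43.0% of all miRNAs. Without both HF replicate 17 and LF replicate 11, 77 of 103 were above 0 and the median was 0.13, beside 222 of 435 and 0.01. Among the 12 most abundant members, 11 had a higher mean in HF than in LF bulls and none passed a threshold. For 8 of these 12 the highest library was HF replicate 17. The 12 are also not separate measurements. bta-miR-2284y, bta-miR-2285av and bta-miR-2284h-5p kept nearly constant ratios, as did bta-miR-2284z and bta-miR-2284aa. For bta-miR-2284x the log2 fold change was 0.24 (standard error 0.20, p = 0.23 in limma), for bta-miR-2284y 0.23 (0.20, p = 0.25) and for bta-miR-2284z 0.27 (0.25, p = 0.30).

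**Figure D4:**
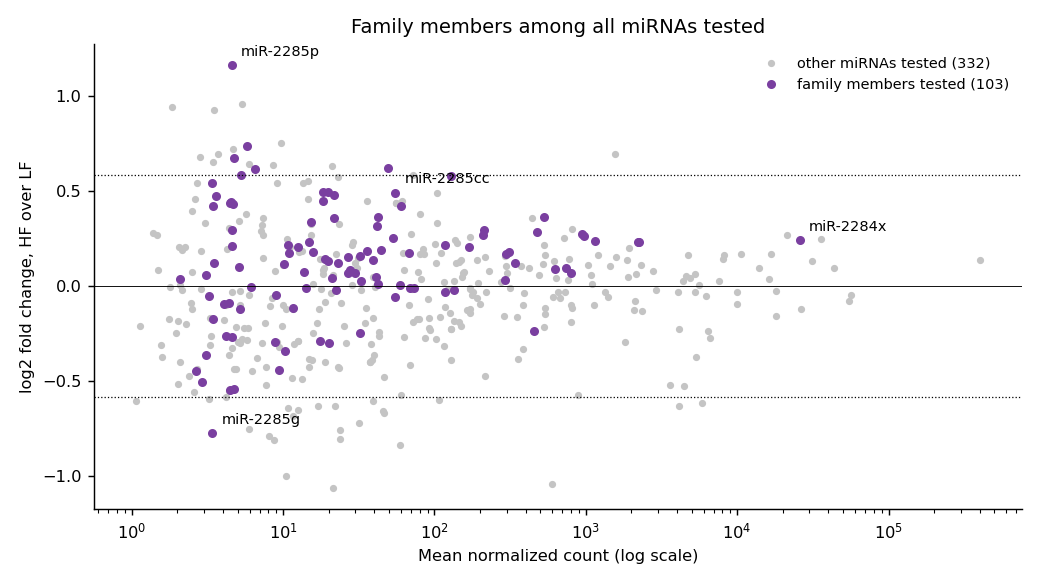
log2 fold change, HF over LF (vertical axis), against mean normalized count (log scale) for 103 family members (dark) and 332 other miRNAs (light) tested with limma; dotted lines mark a fold change of 1.5 in each direction. Most members lie a little above 0, and miR-2285p at 1.16 is the only one past both thresholds.

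bta-miR-2285p was the member past both thresholds, at low counts. The study counts it among its differentially expressed miRNAs too, from edgeR over a larger set of miRNAs. It had 0 to 9.89 in HF (median 6.20) and 0 to 7.40 in LF bulls (median 2.08), which is at most 21 recovered reads in any library. HF replicate 17, with no read and the least depth, was the lowest HF bull, whereas LF replicates 4, 7 and 11 had no read and LF replicates 1 and 5 had 1. The highest value was that of HF replicate 14, the ranges overlapped, and the other 9 HF bulls lay above the lowest 6 LF bulls. The log2 fold change was 1.16 (standard error 0.49, p = 0.027, adjusted p = 0.94 in limma). Leaving out LF replicate 4, 7 or 11 gave 1.00 each time, with p between 0.054 and 0.055. The call was thus lost without any one of these 3 bulls. It was kept in the other 17 fits with 1 bull left out. The largest estimate among them, 1.46 (p = 0.0026 in limma), came from dropping HF replicate 17, which had no read. Dropping LF replicate 11 as well gave 1.29 (p = 0.0052). On recovered reads, p was 0.0029 and 0.017 in edgeR's likelihood ratio and quasi-likelihood tests and 0.011 in DESeq2. None of these fits gave an adjusted p under 0.05. With a pseudocount of 5, the log2 fold change was 0.55 and the fold threshold was not passed.

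bta-miR-2285cc had the smallest unadjusted p of the family. Its normalized count was 40.6 to 110 in HF (median 61.1) and 24.5 to 55.4 in LF bulls (median 47.4). HF replicate 17 was the highest with 110, from 12 reads, LF replicate 5 was the lowest, and the ranges overlapped between 40.6 and 55.4. The log2 fold change was 0.49 (standard error 0.20, p = 0.020, adjusted p = 0.94 in limma), below the fold threshold, and its unadjusted p lay between 0.0095 and 0.046 when each bull was left out in turn. Without the library factor it was 0.051, with a log2 fold change of 0.43, and 1 member rather than 2 then had an unadjusted p under 0.05.

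Of the next 3 members by p, bta-miR-2285be and bta-miR-2285ax had higher means in HF and bta-miR-2285g in LF bulls, without passing the thresholds. bta-miR-2285be had 3.01 to 12.0 in HF (median 8.89) and 1.84 to 12.2 in LF bulls (median 3.86), a log2 difference of 0.61 with a standard error of 0.32 (p = 0.064 in limma). bta-miR-2285ax had 9.66 to 41.4 in HF (median 24.8) and 8.64 to 25.4 in LF bulls (median 19.0), a log2 difference of 0.48 with a standard error of 0.25 (p = 0.071). bta-miR-2285g had 0 to 6.59 in HF (median 2.99) and 1.67 to 7.27 in LF bulls (median 3.72), a log2 difference of -0.78 with a standard error of 0.40 (p = 0.066). The adjusted p was 0.94 for each in limma. Leaving out 1 of the 20 bulls at a time brought bta-miR-2285be past both thresholds in 5 fits, bta-miR-2285g in 4 and bta-miR-2285ax in 1. None of the 3 passed both under the other alternatives. In edgeR's tests and DESeq2, p was 0.094 to 0.14 for bta-miR-2285be, 0.27 to 0.28 for bta-miR-2285g and 0.044 to 0.060 for bta-miR-2285ax. bta-miR-2285be had at most 22 reads in a library and bta-miR-2285g at most 8.67.

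**Figure D5:**
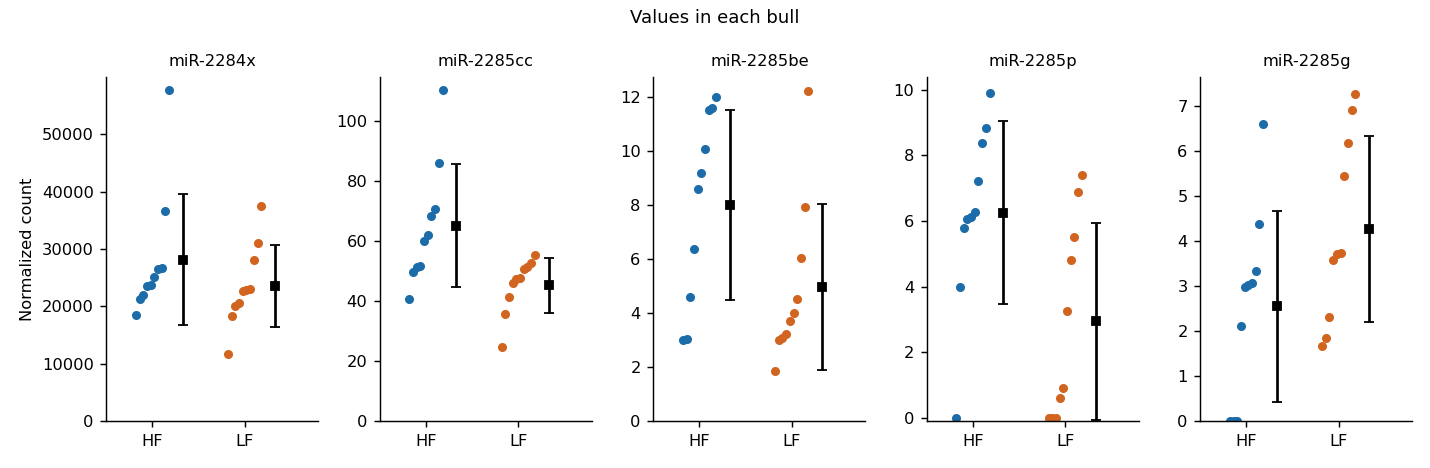
Normalized count in each bull (vertical axis, a separate scale per panel) for miR-2284x, miR-2285cc, miR-2285be, miR-2285p and miR-2285g; points are bulls, squares and bars are mean ± SD (n = 10 HF and 10 LF). The HF and LF points overlap in all 5 panels, and the highest miR-2284x value is 57675.

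bta-miR-2285t, which the study also counts as differentially expressed in that edgeR comparison, did not pass the filter here. It had at least 1 read in 8 HF and 6 LF bulls, with 37 reads in all 20 libraries together, and its normalized count was 0 to 7.66 in HF (median 2.14) and 0 to 3.09 in LF bulls (median 0.927). The ranges overlapped from 0 upward. Without the filter limma gave a log2 difference of 0.57 with a standard error of 0.41 (p = 0.18, adjusted p = 0.91).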

How the data were processed

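Per the paper's methods and the labels, small RNA libraries of the 20 bulls were made with the NEBNext small RNA kit. The authors clipped adapters with cutadapt, kept reads of 15 to 28 bases, removed other small RNA classes, ran miRDeep2 with Bowtie on ARS-UCD1.2 and miRBase, and merged the counts. The deposited values are a signal, read counts scaled to a common total and normalized by the authors with the TMM method of edgeR. The submitters' processing notes name cutadapt 2.6 and edgeR 3.5, and the paper names other versions of both. Values were divided by the worth of 1 read, the commonest low value of each library, to recover reads: 95.0% of values above 0 came out within 0.01 of a whole number, and 85.0% in the family.

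Members were compared with limma 3.58.1 (variance trend) on log2(normalized count + 1), in 1 fit over all miRNAs left after removing those under 1 in at least 10 bulls, with Benjamini-Hochberg adjustment. Shares and numbers of members were compared by permutation (100000 resamples). Alternatives were edgeR 4.0.16 and DESeq2 1.42.0 on recovered reads rounded to whole numbers, pseudocounts of 0.5 and 5, other filters, no TMM factor and leaving out each bull. The limma, edgeR and DESeq2 fits were also run on simulated counts, limma there without a TMM factor. The other pseudocounts, other filters, no TMM factor and leaving out bulls were not run on simulated counts as alternatives. Named members were the 12 most abundant, those past the thresholds, those the study names, the 5 with the smallest p, and members of identical or fractional rows, up to 12 by mean. The members and lists were chosen with earlier results of these data known. Gene copies by name came from the RefSeq annotation of ARS-UCD2.0, which served for names and for which genes are neighbours, and no coordinate of it is given. Mature sequences and seed groups were not analysed here.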

Additional observations from a re-analysis of the deposited data

Results flagged for a closer look

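A bull stood apart from the rest of its group, by the gap to its nearest neighbour in relation to the whole range, in 7 of 42 groups of 10 looked at (the family share, the share of bta-miR-2284x, the number of members read and 18 named members, each in HF and in LF bulls). By chance, about 1 in 20 such groups would hold such a bull if the values were normally distributed. Normalized counts need not be, and several of these members kept nearly constant ratios. No excess over chance is therefore read from the count.

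In LF replicate 13, bta-miR-2284x made up 55.0% of the counts of the family, against 61.6% to 67.1% in the other LF bulls. For bta-miR-2284x itself, HF replicate 17 had a normalized count of 57675, from 6275 reads, with the next HF bull at 36548. bta-miR-2285au was high in the same library, at 1195 from 130 reads, with the next HF bull at 783. LF replicate 18 stood apart for bta-miR-2284z at 1445 (next LF bull 988), for bta-miR-2284aa at 1413 (next 966) and for bta-miR-2285bf at 934 (next 658). bta-miR-2284z and bta-miR-2284aa kept a nearly constant ratio in all libraries and are not separate cases. HF replicate 6 stood apart for bta-miR-2285t at 7.66, which was 5 reads, with the next HF bull at 3.86.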

How the results depend on the processing

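No paired analysis was possible because the HF and LF libraries came from different bulls, and the labels pair none of them. The number of members past both thresholds, 1 in limma, was 3 in edgeR's quasi-likelihood test (bta-miR-2284v, bta-miR-2285bk and bta-miR-2285p), 2 in edgeR's likelihood ratio test and 2 in DESeq2 (bta-miR-2284v and bta-miR-2285p in each), 0 with a pseudocount of 5 and 0 where a normalized count of at least 1 was asked of every bull, which left 66 members and not bta-miR-2285p. Of all miRNAs tested, 4 of 435 passed with that pseudocount and 4 of 287 with that filter. With single bulls removed in turn, 1 to 4 members passed, beside 7 to 15 of 435 miRNAs. Without HF replicate 9 it was 4 of 103 members and 10 of 435 miRNAs. Without HF replicate 14 it was 3 of 103 and 11 of 435. The family had the larger share in these 2 cases and in none of the others. bta-miR-2285p was called in 17 of the 20 fits. The difference in the share of bta-miR-2284x within the family was -0.0992 to 1.25 points, and that in the number of members read -2.40 to 1.93, over the same fits. The latter difference, -1 with any read, was 2 members with at least 3 reads, 0.902 at the depth of the shallowest library and 0.889 without HF replicate 17 and LF replicate 11. The direction of the difference in the family's share held under all 26 alternatives, with p from 0.27 to 0.83. The setting without HF replicate 17 and LF replicate 11, and that counting nearly constant pairs once, were chosen after seeing the data. Grouping by seed was not run. Members with a mean under 10 rest on few reads, and in HF replicate 17 a count of 0 allows up to 27.6.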
